A study of Mus musculus with 13 samples.

Results

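Meis1, Meis2, Shox2, Lhx2, Lhx9, Msx1 and Msx2 are homeobox genes whose expression marks positions along the limb bud, and they were followed here across Sox9-deficient and control mouse limb buds. They were chosen by gene symbol, and all 7 were found among the 12880 genes of the table. The series holds RNA-seq of limb buds at embryonic days E11.5 and E12.5, 13 libraries in 4 groups, each made from the limb buds of a separate embryo. At E11.5 there were 3 control libraries of genotype Sox9fl/-, which carry 1 null allele beside the floxed one, and 4 libraries of genotype Sox9-/-, named Sox9null in the labels. The E12.5 groups were 3 control libraries of genotype Sox9fl/fl and 3 of genotype Sox9fl/flPrx1CreER, named Sox9cKO, in which a tamoxifen-inducible Cre recombinase is driven by the limb mesenchyme Prx1 promoter. Sox9 encodes the transcription factor required for cartilage formation. The study asked which changes of the forming cartilage depend on it. No source used here gives the tamoxifen dose, the sex of the embryos or the limb taken.

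In the early limb bud, MEIS proteins are made in the proximal part, towards the body wall, where retinoic acid favours their expression, and FGF signals from the apical ectodermal ridge restrict them. MEIS proteins are TALE homeodomain factors that bind DNA with other TALE proteins and with HOX proteins. Lhx2 and Lhx9 encode LIM-homeodomain factors of the distal mesenchyme that act with the LDB1 cofactor, downstream of ridge signals. Msx1 and Msx2 encode repressors induced by BMP signals in distal mesenchyme and, for Msx2, also in the ridge. Shox2 is needed for the most proximal limb segment and acts upstream of cartilage maturation.

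Values are the authors' normalized RPKM, a read density per kilobase of gene, so that levels of genes of unequal length can be compared. Differences are on the log2(RPKM + 1) scale, tested with limma over all 12880 genes, and a gene was called at a Benjamini-Hochberg adjusted p under 0.05. The p-values measure the spread between these embryos' libraries. In whole limb buds, fewer cells expressing a gene and less RNA per cell cannot be told apart. Sox9 was 40.7 ± 7.47 RPKM (SD, n = 3) in E11.5 controls and 23.5 ± 2.35 (n = 4) in Sox9null, and fell by 0.76 on the log2 scale (limma adjusted p = 0.0360). At E12.5 it was 36.2 ± 1.22 in controls and 32.0 ± 3.23 in Sox9cKO (n = 3 each; limma adjusted p = 1.00). No source used here says which exons were removed, so an RPKM over the whole gene checks the labels only in part. The summed RPKM of 11 cartilage genes was 147 to 210 in E11.5 controls and 94.2 to 118 in Sox9null, and 274 to 352 in E12.5 controls and 151 to 203 in Sox9cKO. The 8 limb mesenchyme markers were above 0 in every library, with sums of 313 to 367. The E11.5 libraries were split into 2 sets by clustering on their correlations with each other, and the labels do not name these sets. The set of 4 holds control replicates 1 and 3 and Sox9null replicates 3 and 4. The set of 3 holds control replicate 2 and Sox9null replicates 1 and 2. Correlations were 0.979 to 0.989 within a set and 0.938 to 0.966 between sets. Higher values within a set follow from how the split was made. At E12.5 Y-linked genes were expressed in all 3 control libraries and in 1 of the 3 Sox9cKO libraries, so genotype and sex were partly confounded there.

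No homeobox gene of the 7 passed the test between mutants and controls at either age, and none in the test of the difference between the ages. The 2 MEIS genes were the most variable of the 7 between embryos of a group and went up and down together. Msx2 was the single member called with age, in controls, at 17.2 RPKM on E11.5 and 24.5 on E12.5. That call was lost in 6 of 23 alternative settings, and the controls of the 2 ages differed in genotype. Among all genes tested, 0.0543% were called at E11.5 and 0.194% at E12.5 between mutants and controls, against 0 of 7 members in each. In the comparison of ages, 21.7% of all genes were called in controls, against 1 of 7 members, and 19.7% in mutants, against 0 of 7.

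**Figure D1:**
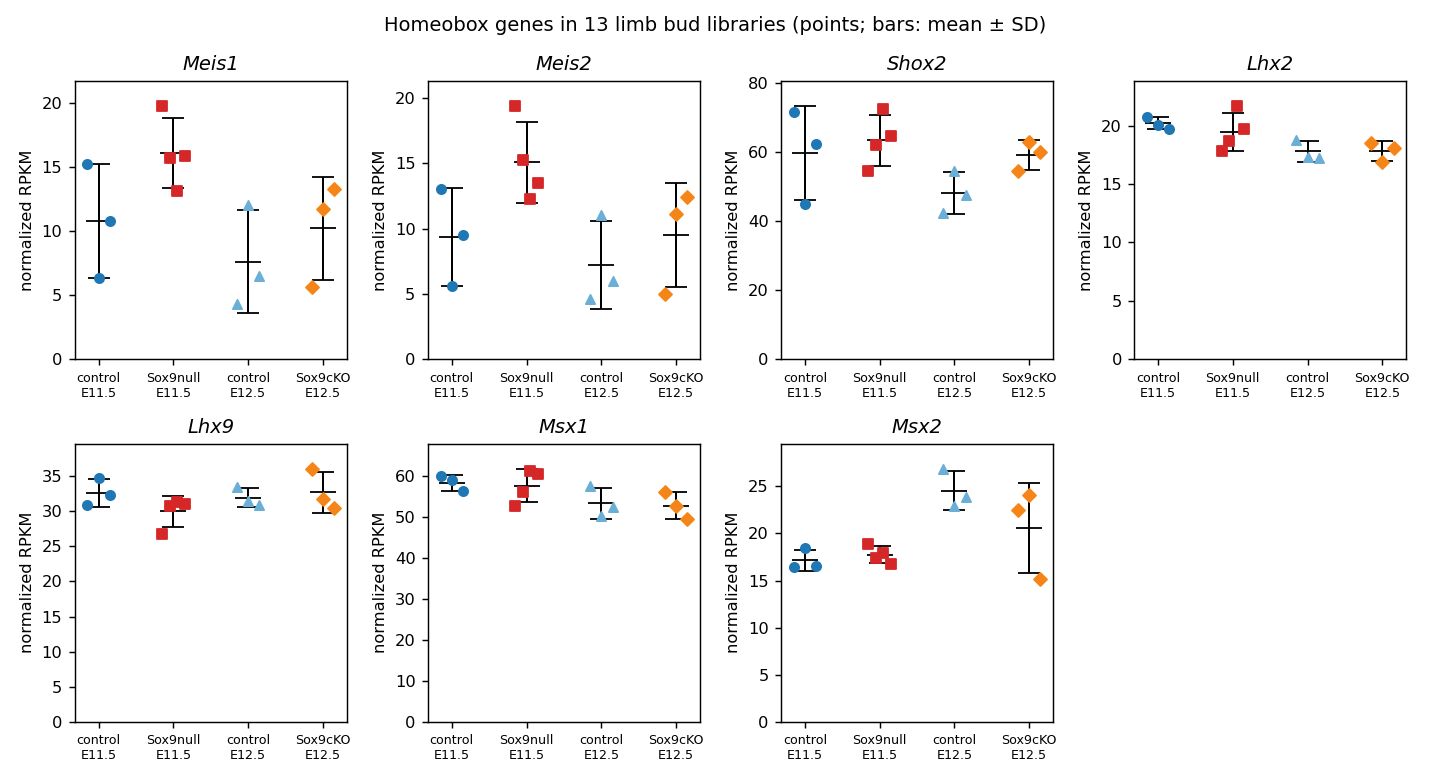
Normalized RPKM (y axis, from 0) of each of the 7 homeobox genes in the 4 groups (x axis); points are libraries and bars are the mean ± SD. Meis1 and Meis2 spread widely within groups, from 4.31 to 19.7 RPKM for Meis1, while Lhx2, Lhx9 and Msx1 stay in narrow bands and Msx2 is higher in the E12.5 controls than in either E11.5 group.

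Meis1 lies on mouse chromosome 11 (GRCm38, chr11:18879817-19018985, minus strand) and Meis2 on chromosome 2 (chr2:115863064-116065839, minus strand), both protein coding in GENCODE release M21. Exons of Meis1 share 1029 bases with Gm37818 on the same strand and 896 bases with the antisense gene Gm16140. No source used here gives the use of strand in counting, so reads of these overlaps cannot be assigned. A stretch before an annotated RefSeq start of each of these 2 genes is shown because their levels moved together. The matching stretch of Lhx9 is shown because its level tended to run opposite to theirs at E11.5, a relation that did not pass the adjusted threshold. The sequences come from RefSeq (GRCm38.p6, each on the gene's strand, minus for all 3), within the 250 bases before the start, where they lie outside annotated untranslated regions. They are chr11:19018986-19019219 for Meis1, chr2:116064722-116064813 for Meis2 and chr1:138842458-138842694 for Lhx9. The Meis1 stretch lies outside the GENCODE span of its gene. Those of Meis2 and Lhx9 lie inside the GENCODE spans (chr1:138825186-138848577 for Lhx9), so the RefSeq starts used for them are internal. Capitals mark TGACAG, the core of the site bound by MEIS proteins.
Meis1: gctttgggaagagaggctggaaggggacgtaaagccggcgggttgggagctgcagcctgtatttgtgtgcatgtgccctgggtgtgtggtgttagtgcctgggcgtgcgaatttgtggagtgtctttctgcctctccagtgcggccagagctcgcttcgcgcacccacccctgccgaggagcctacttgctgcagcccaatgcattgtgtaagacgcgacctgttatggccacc
Meis2: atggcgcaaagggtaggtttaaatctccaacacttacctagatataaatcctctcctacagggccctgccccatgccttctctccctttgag
Lhx9: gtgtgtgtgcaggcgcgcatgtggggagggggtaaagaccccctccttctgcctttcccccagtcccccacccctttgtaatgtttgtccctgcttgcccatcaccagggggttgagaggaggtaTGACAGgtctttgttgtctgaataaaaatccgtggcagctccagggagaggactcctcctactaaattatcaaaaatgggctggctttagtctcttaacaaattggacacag
Both strands of the 8 annotated windows of the 7 genes were searched for TGACAG and for AACAAT, a core of SOX protein sites, and neither motif is part of the other. TGACAG was found in 1 of 8 windows, that of Lhx9, and in 15.86% of 32851 promoter windows of the same length. AACAAT was found in 0 of 8 and in 9.42% of all windows. A match is a run of letters, not a bound site.

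Meis1, a proximal limb marker, was at 15.2, 6.37 and 10.8 RPKM in E11.5 control replicates 1 to 3. It was at 19.7, 15.7, 13.1 and 15.89 in Sox9null replicates 1 to 4. The groups overlapped, because control replicate 1 lay above the lowest mutant. Control replicates 2 and 3 lay below every mutant, replicate 2 the farthest. The means were 10.8 ± 4.42 (SD, n = 3) and 16.1 ± 2.72 (n = 4), a log2 difference of 0.60 (95% confidence interval -0.16 to 1.36, limma adjusted p = 1). Without control replicate 2 the difference was 0.30. Within the set of 4 libraries it was 0.16, and within the set of 3, which holds that control, it was 1.34.

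Meis2, the paralogue of Meis1, was at 13.0, 5.57 and 9.49 RPKM in the E11.5 controls. It was at 19.4, 15.2, 12.3 and 13.5 in Sox9null. Again control replicate 2 was the lowest and Sox9null replicate 1 the highest, and the groups overlapped. Control replicates 2 and 3 both lay below every mutant here too. The means were 9.36 ± 3.73 and 15.10 ± 3.10, a log2 difference of 0.68 (95% confidence interval -0.05 to 1.42, limma adjusted p = 1). Without control replicate 2 it was 0.39. It was 0.19 within the set of 4 libraries and 1.47 within the set of 3. How far the library sets contribute to the pooled difference was not tested beyond these values.

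At E12.5 Meis1 was at 4.31, 12.1 and 6.46 RPKM in controls and at 5.61, 11.7 and 13.3 in Sox9cKO. Both groups held low and high libraries and they overlapped almost fully. The means of Meis1 were 7.61 ± 4.00 and 10.2 ± 4.05 (n = 3 each), a log2 difference of 0.41 (95% confidence interval -0.40 to 1.21, limma adjusted p = 1.00). Meis2 was at 4.64, 11.0 and 6.02 RPKM in controls and at 4.95, 11.1 and 12.4 in Sox9cKO, with means of 7.23 ± 3.36 and 9.49 ± 3.99. Its log2 difference was 0.34 (95% confidence interval -0.45 to 1.13, limma adjusted p = 1.00), and its groups overlapped likewise. Leaving out 1 library moved the E12.5 difference of Meis1 to between 0.11 (without control replicate 1) and 0.76 (without control replicate 2), and that of Meis2 to between 0.11 (without control replicate 1) and 0.71 (without Sox9cKO replicate 1). The intervals of both genes at both ages include 0 and reach above 1 on the log2 scale.

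The spread of the MEIS genes between embryos of a group was among the largest in the table. The within-group SD was 0.51 on the log2 scale for Meis1 and 0.50 for Meis2, and 1.34% and 1.42% of all genes had a larger one. Their highest library was 4.58 and 4.18 times their lowest. The ratio of Meis1 to Meis2 nonetheless stayed between 0.928 and 1.18 over all 13 libraries.

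The 4 lowest libraries of both genes were the same: E12.5 control replicates 1 and 3, Sox9cKO replicate 1 and E11.5 control replicate 2. These 4 lay at 6.46 RPKM or less for Meis1, and the other 9 at 10.8 or more. For Meis2 the bounds were 6.02 and 9.49. The low libraries thus belonged to 3 of the 4 groups and to both ages.

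Over all 21 pairs of members within each age, 42 correlations in all, Pearson's r of Meis1 and Meis2 was 0.990 at E11.5 (n = 7, Spearman's rho 0.964, exact permutation p = 0.000595 and 0.00278, adjusted over the 42 pairs 0.0250 and 0.0583). At E12.5 it was 0.992 (n = 6, rho 0.943, exact permutation p = 0.00278 and 0.0167, adjusted 0.0583 and 0.140). Without the 2 libraries farthest from the median of Meis1, r was 0.933 at E11.5 and 0.999 at E12.5. By r, the E11.5 value of this pair was the only one of the 42 with an adjusted p under 0.05. Libraries of both genotypes enter each value, and the E11.5 values also span the 2 library sets, which are too small for a correlation of their own.

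Genes outside the 7 with the pattern most like Meis1 over the 13 libraries were Hoxb3os (r = 0.986), Irx3 (r = 0.983) and Igf1 (r = 0.968). The same 3 genes were closest to Meis2, with r of 0.967 for Irx3, 0.965 for Hoxb3os and 0.953 for Igf1. Irx3, an Iroquois homeobox gene of the proximal and anterior limb bud, was at 8.08 RPKM or less in the 4 libraries low for Meis1 and at 15.87 or more in the other 9. Hoxb3os, a transcript named for the strand opposite Hoxb3, was at 2.00 or less and 3.06 or more in the same libraries. Igf1, a secreted growth factor, was at 14.4 or less and 17.1 or more. These genes were picked for their likeness, from 12880 genes over libraries of both ages and genotypes, so r is a description.

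**Figure D2:**
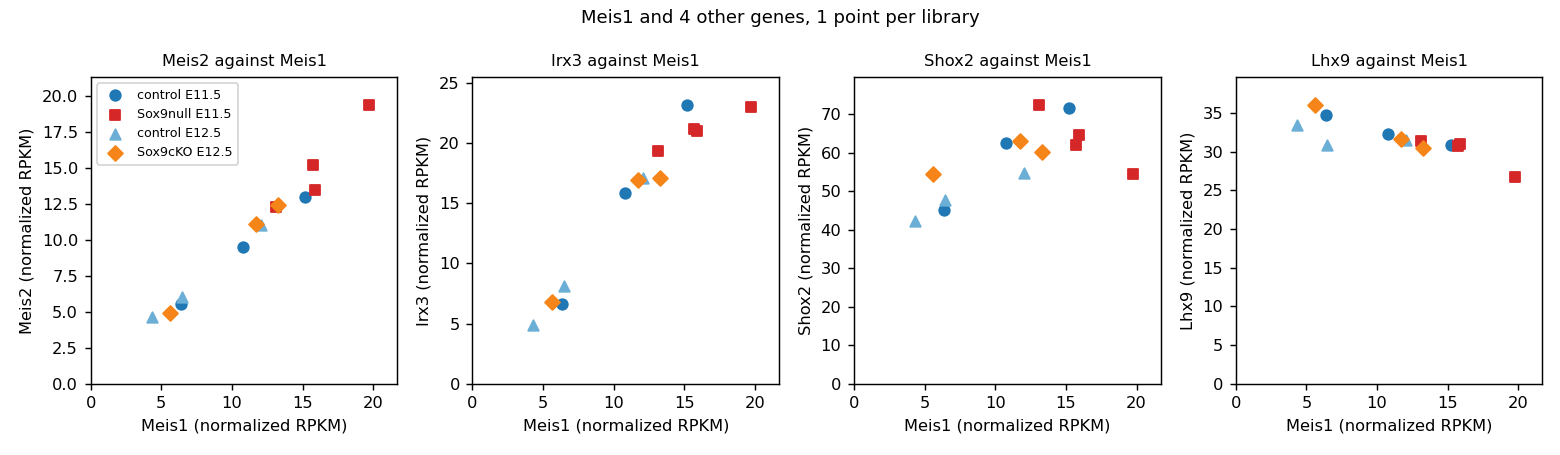
RPKM of Meis2, Irx3, Shox2 and Lhx9 (y axes) against that of Meis1 (x axis), 1 point per library, all axes from 0, coloured by group. Meis2 and Irx3 are higher where Meis1 is higher across libraries of every group, from 4.64 to 19.4 RPKM for Meis2, while Lhx9 has its lowest value of 26.8 where Meis1 has its highest of 19.7.

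Shox2 (chr3:66971727-66981771, minus strand), which shares 153 exonic bases with Rsrc1 on the other strand, was with Msx1 the most abundant of the 7. It was at 71.7, 45.1 and 62.4 RPKM in E11.5 controls and at 54.6, 62.0, 72.4 and 64.6 in Sox9null. The mutant values lay within or just above the control range, whose lowest library was again control replicate 2. The means were 59.7 ± 13.5 (SD, n = 3) and 63.4 ± 7.34 (n = 4), a log2 difference of 0.10 (95% confidence interval -0.21 to 0.42, limma adjusted p = 1), which was -0.084 without that control. At E12.5 Shox2 was at 42.3, 54.6 and 47.6 in controls and at 54.4, 63.0 and 60.1 in Sox9cKO. The groups overlapped by 1 library, the highest control lying just above the lowest mutant. The means were 48.2 ± 6.15 and 59.2 ± 4.34, a log2 difference of 0.30 (95% confidence interval -0.04 to 0.63, unadjusted p = 0.0816, limma adjusted p = 1.00).

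Shox2 showed no stable relation to the MEIS genes at E11.5. Its r with Meis1 was 0.553 there (n = 7, Spearman's rho 0.036, exact permutation p = 0.205 and 0.964, adjusted over the 42 pairs 0.374 and 0.987) and -0.919 without the 2 libraries farthest from the median of Meis1. The positive r thus rested on those libraries, of which control replicate 2 was the lowest. At E12.5 r was 0.837 (n = 6, rho 0.771, exact permutation p = 0.0361 and 0.103, adjusted 0.190 and 0.329), and 0.863 without the 2 farthest. The genes most like Shox2 over 13 libraries were Nrbf2 (r = 0.933), Ssbp4 (r = 0.925) and Sipa1 (r = 0.910). Ssbp4 belongs to the single-stranded DNA-binding proteins that stabilise LDB1 complexes.

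Lhx2 (chr2:38339281-38369733, plus strand) was at 20.8, 20.1 and 19.8 RPKM in E11.5 controls. It was at 17.8, 18.7, 21.7 and 19.7 in Sox9null. The mutant values lay on both sides of the controls, with means of 20.2 ± 0.529 (SD, n = 3) and 19.5 ± 1.66 (n = 4). At E12.5 Lhx2 was at 18.8, 17.3 and 17.3 in controls and at 18.5, 16.9 and 18.1 in Sox9cKO, with the same mean of 17.8 in both. The log2 difference was -0.055 at E11.5 (95% confidence interval -0.19 to 0.08, limma adjusted p = 1) and 0.0020 at E12.5 (-0.15 to 0.15, limma adjusted p = 1.00). The intervals of Lhx2 are among the narrowest of the 7 genes.

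Lhx9 (chr1:138825186-138848577, minus strand), which works alongside Lhx2, was at 30.9, 34.8 and 32.3 RPKM in E11.5 controls. It was at 26.8, 30.7, 31.4 and 31.0 in Sox9null. Replicate 1 lay below all other libraries of the study. Replicate 2, at 30.71, also lay below every E11.5 control, the lowest of which was at 30.89. Replicates 3 and 4 lay within the control range, near its lower end. The means were 32.6 ± 1.96 and 29.98 ± 2.15, a log2 difference of -0.12 (95% confidence interval -0.28 to 0.04, limma adjusted p = 1). At E12.5 Lhx9 was at 33.5, 31.5 and 30.9 in controls and at 36.03, 31.7 and 30.4 in Sox9cKO. The log2 difference was 0.031 there (95% confidence interval -0.14 to 0.20, limma adjusted p = 1.00), and the groups overlapped fully.

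At E11.5 Lhx9 was high in libraries with little Meis2 and low in those with much. There r was -0.917 (n = 7, Spearman's rho -0.964, exact permutation p = 0.0121 and 0.00278, adjusted over the 42 pairs 0.102 and 0.0583), and -0.973 without the 2 libraries farthest from the median of Meis2. With Meis1 it was -0.888 at E11.5 (rho -0.893, exact permutation p = 0.0175 and 0.0123, adjusted 0.117 and 0.140). At E12.5 r was -0.669 with Meis1 and -0.709 with Meis2 (n = 6), and 0.089 and 0.086 without the 2 libraries farthest from the median of the MEIS gene, so it rested on those libraries. The inverse relation did not pass the adjusted threshold at either age. The genes most like Lhx9 were Nkd2, an inhibitor of WNT signalling (r = 0.933 over 13 libraries), Lmo4, a LIM-only cofactor (r = 0.804), and Angptl2 (r = 0.782).

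The ratio of Lhx9 to Lhx2 ranged from 1.45 to 1.94 over the 13 libraries. Its mean was 1.62 ± 0.123 in E11.5 controls, 1.54 ± 0.0851 in Sox9null, 1.79 ± 0.0179 in E12.5 controls and 1.83 ± 0.135 in Sox9cKO. The ratio was higher at E12.5 in every library of a genotype class than at E11.5, by 0.15 on the log2 scale in controls (exact permutation p = 0.1, the smallest that 3 against 3 allows) and by 0.25 in mutants (exact permutation p = 0.0286, the smallest that 4 against 3 allows). Over the 12 ratio comparisons made, the adjusted p was 0.300 for both.

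Msx1 (chr5:37820485-37824583, minus strand) was at 59.9, 58.8 and 56.1 RPKM in E11.5 controls. It was at 52.5, 56.0, 61.2 and 60.5 in Sox9null. The means of 58.3 ± 1.95 (SD, n = 3) and 57.5 ± 4.07 (n = 4) lay within the spread of either group. At E12.5 Msx1 was at 57.4, 50.1 and 52.3 in controls and at 55.9, 52.7 and 49.4 in Sox9cKO, again overlapping, with means of 53.2 ± 3.77 and 52.7 ± 3.24. The log2 difference was -0.021 at E11.5 (95% confidence interval -0.17 to 0.13, limma adjusted p = 1) and -0.015 at E12.5 (-0.18 to 0.15, limma adjusted p = 1.00). For Msx1 and Lhx2, both distal mesenchyme genes, r at E11.5 was 0.888 (n = 7, rho 0.786, exact permutation p = 0.00635 and 0.0480, adjusted over the 42 pairs 0.0875 and 0.252). The relation did not pass the adjusted threshold, and the part of the 2 library sets in it was not tested. Without the 2 libraries farthest from the median of Lhx2, r was 0.655. Dynlt1f and Hoxa10 were among the 3 genes most like both of them, with r of 0.904 and 0.932 for Lhx2 and 0.880 and 0.868 for Msx1. The others were Ccni for Lhx2 (r = 0.901) and Id1, a BMP response gene, for Msx1 (r = 0.852).

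Msx2 (chr13:53466884-53473074, minus strand) was at 16.5, 18.5 and 16.6 RPKM in E11.5 controls. It was at 18.9, 17.4, 18.0 and 16.8 in Sox9null. These 7 values lay close together, with means of 17.2 ± 1.12 (SD, n = 3) and 17.8 ± 0.911 (n = 4) and a log2 difference of 0.047 (95% confidence interval -0.22 to 0.32, limma adjusted p = 1). At E12.5 Msx2 was at 26.8, 22.9 and 23.8 in controls and at 22.5, 24.1 and 15.2 in Sox9cKO. Replicate 3 of Sox9cKO was the lowest of all 13 libraries, and the other 2 mutants lay at the control level. The means were 24.5 ± 2.07 and 20.6 ± 4.75, a log2 difference of -0.26 (95% confidence interval -0.55 to 0.03, unadjusted p = 0.0708, limma adjusted p = 1.00), which was -0.069 without that library.

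The gene most like Msx2 over the 13 libraries was Cntf (r = 0.944), a neurotrophic factor, followed by B3gnt7 (r = 0.937) and Irx1 (r = 0.936). In Sox9cKO replicate 3 Irx1 was at 1.31 RPKM, against 12.51 and 9.71 in the other 2 Sox9cKO libraries and 8.74 to 20.5 in E12.5 controls. Cntf was at 1.28 there, against 3.63 and 3.55 in the other 2. The 7 E11.5 libraries had Irx1 at 0.654 to 1.21. These genes were picked for their likeness to Msx2, so that library's low values in them are a description. In Msx2, Irx1 and Cntf it was thus at or near the E11.5 level. The summed RPKM of 9 muscle genes was 127 to 186 over the Sox9cKO libraries, this one included. That sum was 55.5 to 87.4 in E11.5 controls and 61.7 to 93.2 in Sox9null. The sum of 8 macrophage markers was 44.9 to 75.0 in Sox9cKO, 33.8 to 40.6 in E11.5 controls and 32.3 to 45.7 in Sox9null. No source used here gives the exact stage of Sox9cKO replicate 3 or the limb sampled. The part of either in the E12.5 difference of Msx2 was not tested.

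With age, in controls, Msx2 rose by 0.49 on the log2 scale (SE 0.133, 95% confidence interval 0.20 to 0.78, limma adjusted p = 0.0223). All 3 E12.5 controls lay above all 3 E11.5 controls, as was so in either direction for 45.9% of all genes. The call was lost with libraries scaled to equal medians (adjusted p = 0.0512) or quantile normalized (0.0579), and over all alternatives the limma adjusted p ran from 0.00164 to 0.0954 and the difference from 0.41 to 0.63. It was also lost without any of 4 controls: 0.0704 without E11.5 replicate 1, 0.0572 without E11.5 replicate 3, 0.0954 without E12.5 replicate 1 and 0.0555 without E12.5 replicate 3. In mutants the difference was 0.18 (95% confidence interval -0.09 to 0.45, limma adjusted p = 0.317), or 0.37 without Sox9cKO replicate 3 (limma adjusted p = 0.0125). The difference between the 2 age effects, -0.31 (95% confidence interval -0.71 to 0.09), did not pass the test (limma adjusted p = 1.00). The ratio of Msx1 to Msx2 was 3.41 ± 0.226 in E11.5 controls, 3.25 ± 0.355 in Sox9null, 2.17 ± 0.0301 in E12.5 controls and 2.64 ± 0.551 in Sox9cKO.

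**Figure D3:**
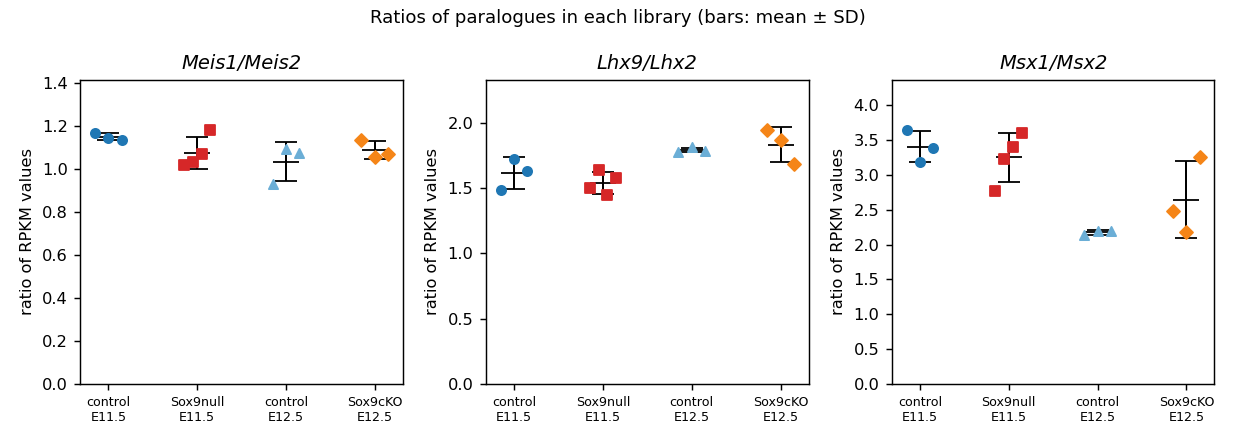
Ratio of RPKM values within each library (y axis, from 0) for 3 pairs of related genes in the 4 groups (x axis); points are libraries and bars are the mean ± SD. The Meis1 to Meis2 ratio stays between 0.928 and 1.18, and the Msx1 to Msx2 ratio is 2.14 to 2.19 in E12.5 controls against 3.19 to 3.64 in E11.5 controls.

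The other 6 members did not pass the test of age in controls or in mutants. Lhx2 was the nearest in controls, with a log2 difference of -0.17 (95% confidence interval -0.32 to -0.03, limma adjusted p = 0.0860). Its control groups did not overlap, as was so in either direction for 45.9% of all genes. Scaling to equal medians made it -0.24 (limma adjusted p = 0.00832), a call. The difference was -0.12 in mutants (limma adjusted p = 0.202), and was called after scaling to equal medians (limma adjusted p = 0.0263) or quantile normalization (0.0270). Msx1 differed by -0.13 in controls and -0.12 in mutants (limma adjusted p = 0.224 and 0.212), and was called in both after scaling to equal medians, at -0.20 and -0.19 (limma adjusted p = 0.0385 and 0.0400). Shox2 differed by -0.29 and -0.093 (limma adjusted p = 0.204 and 0.667). Without E11.5 control replicate 2, whose Shox2 was low, the first was -0.47 with a limma adjusted p of 0.0284.

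Meis1 differed with age by -0.48 in controls and -0.67 in mutants (limma adjusted p = 0.369 and 0.181), and Meis2 by -0.34 and -0.68 (0.525 and 0.166). Leaving out 1 library moved the control value of Meis1 to between -0.83 (without E12.5 replicate 2) and -0.18 (without E12.5 replicate 1), and that of Meis2 to between -0.65 (without E12.5 replicate 2) and -0.089 (without E11.5 replicate 1). In mutants the values were -0.33 and -0.32 without Sox9cKO replicate 1. Lhx9 differed by -0.029 and 0.12 (limma adjusted p = 0.815 and 0.237). The median difference of the 7 was -0.17 in controls and -0.12 in mutants, beside 0.060 and 0.059 over all genes. Of the 2794 genes called in controls 2126 were higher at E12.5, and of the 3368 called after scaling to equal medians 1829 were. In mutants 1865 of 2539 were higher, and 1450 of 2799 after that scaling. The genotype differed between the ages, in controls and in mutants. Age therefore cannot be told apart from genotype or from any difference in library preparation between the ages. The same holds for the difference of the mutant effects between the ages. Sex was also partly confounded with age in controls. The mean RPKM of Y-linked genes was 20.4 in E11.5 control replicate 1 and 0.046 and 0.043 in the others of that group. In the E12.5 controls it was 23.8, 23.4 and 22.7. In the authors' deposited table, the adjusted p over the 4 groups was lowest for Msx2 (0.0975) and Lhx2 (0.159) and 0.251 to 0.515 for the other 5.

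**Figure D4:**
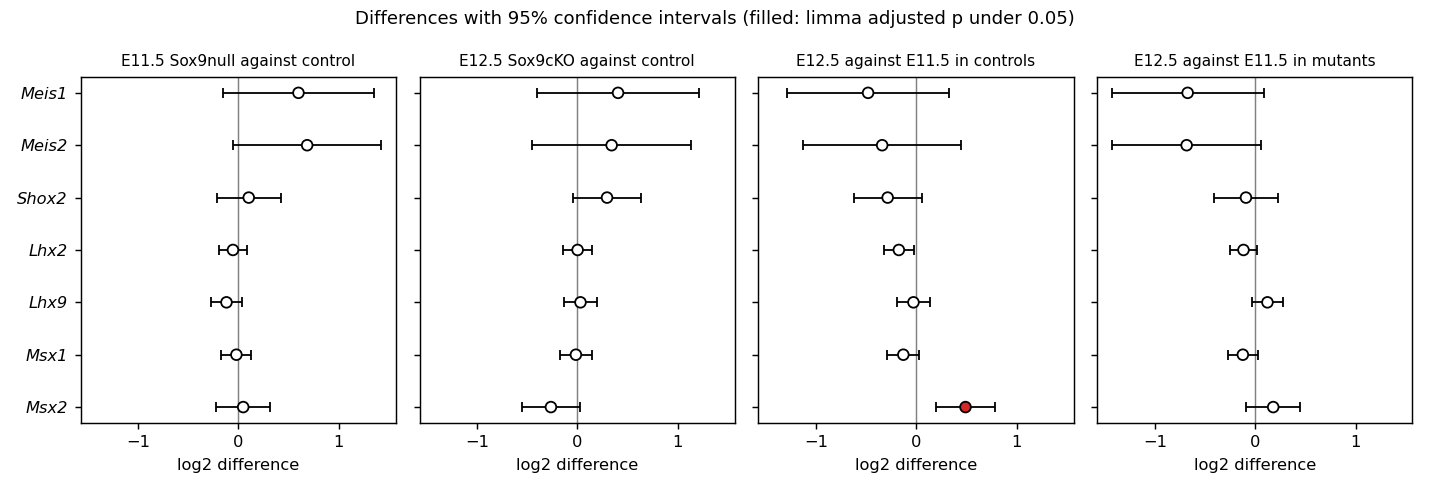
Log2 differences (x axis) with 95% confidence intervals for the 7 genes (y axis) in 4 comparisons. These are mutant against control at each age and E12.5 against E11.5 in controls and in mutants. A filled point has a limma adjusted p under 0.05. The 1 filled point is Msx2 with age in controls, at 0.49, and the intervals of Meis1 and Meis2 are the widest.

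Of the members, 4 of 7 lay above 0 at E11.5 and 5 of 7 at E12.5 between mutants and controls. Their median log2 difference was 0.047 and 0.031, beside 0.0097 and 0.013 over all genes. By unadjusted p under 0.05, 0 of 7 members stood out at either age, as 363 and 697 of all genes did. The test of the difference between ages called 0.0311% of all genes, 0 of 7 members, and 0 of 7 by unadjusted p. By size of difference, 64 of 12880 genes exceeded Meis1 at E11.5 and 440 at E12.5, but its unadjusted limma p was 0.111 and 0.296. Its within-group SD was exceeded by that of 1.34% of all genes, so the rank by size does not measure an effect. Between mutants and controls none of the members had groups that did not overlap, as 2.47% of all genes did at E11.5 and 20.0% at E12.5. Control replicate 2 at E11.5 was the lowest library of its age for Meis1, Meis2 and Shox2.

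The genes that work with these factors were read from 6 lists, chosen with earlier results of these data known. In all 6, no gene passed the test between mutants and controls at either age or in the difference between ages. The nearest was Dhrs3, a retinaldehyde reductase that lowers retinoic acid synthesis, at 10.3 ± 1.07 RPKM in E11.5 controls (SD, n = 3) and 6.63 ± 0.414 in Sox9null (n = 4, limma adjusted p = 0.0685). At E12.5 it was at 15.5 ± 1.49 and 12.0 ± 1.29 (n = 3 each, limma adjusted p = 0.310). The calls with age in the 6 lists stand beside 21.7% of all genes called in controls and 19.7% in mutants. Whether the list calls hold under other scalings was not tested.

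Of the TALE partners, 9 of 10 were measured, and one of the most abundant was Pbx2. It was at 48.4 ± 3.96 RPKM in E11.5 controls, 47.8 ± 3.78 in Sox9null, 43.8 ± 0.892 in E12.5 controls and 45.9 ± 0.455 in Sox9cKO. With age Mkx, a tendon regulator, rose by 0.77 in controls and 0.60 in mutants, and in mutants Pknox1 rose by 0.17 (limma adjusted p = 0.00226, 0.00815 and 0.0398). The other 8 measured did not pass in controls. The list median between mutants and controls was -0.0056 at E11.5 and 0.068 at E12.5.

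Of 18 genes of retinoic acid synthesis, breakdown and reception, 15 were measured. In controls 7 rose with age and 1 fell. The largest rises were in Rxrg, a retinoid X receptor (log2 difference 1.60), Aldh1a2, the main retinoic acid synthesising enzyme of the embryo (0.70), and Rdh10, which supplies its substrate (0.63). Cyp26b1, which breaks retinoic acid down in the distal limb bud, fell by 0.50 (limma adjusted p = 0.00461). In mutants 3 rose (Rxrg 1.03, Dhrs3 0.77, Rdh10 0.46) and Cyp26b1 fell by 0.35. The list median between mutants and controls was -0.013 at E11.5 and -0.055 at E12.5. In this list Crabp2 and Crabp1, retinoic acid binding proteins, had the highest levels.

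Of 12 LIM cofactors and LIM-homeodomain genes, 11 were measured. Ssbp3 and Ldb1 fell with age, by 0.32 and 0.21 in controls and by 0.22 and 0.24 in mutants. Lmo4 rose by 0.19 in mutants (limma adjusted p = 0.0430). Ldb1, the obligate partner of LHX2 and LHX9, was at 51.4 ± 2.71 RPKM in E11.5 controls and 51.6 ± 2.19 in Sox9null, and at 44.1 ± 0.969 and 43.6 ± 2.34 at E12.5. The list median between mutants and controls was 0.015 at E11.5 and 0.092 at E12.5.

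Of 15 genes of BMP signalling and the DLX family, 13 were measured. In controls 4 rose with age and none fell, led by the receptor gene Bmpr1b (0.74), the ligand gene Bmp2 (0.73) and Id4 (0.59). In mutants 3 rose, Bmpr1b by 0.64, Bmp2 by 0.68 and Id4 by 0.67. Bmp2 was at 13.7 ± 3.33 RPKM in E11.5 controls and 23.2 ± 3.38 in E12.5 controls (limma adjusted p = 0.0108). The list median between mutants and controls was 0.018 at E11.5 and -0.0082 at E12.5.

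All 9 Hox genes listed were measured, with Hoxd13, a distal gene, at 59.6 ± 6.55 RPKM in E11.5 controls and 55.7 ± 2.47 in Sox9null. Hoxd11, Hoxd9 and Hoxd10 fell with age in controls, by 0.57, 0.51 and 0.38, and Hoxd11 and Hoxd10 in mutants, by 0.60 and 0.42. Of 15 distal FGF and WNT genes, 13 were measured. In controls 6 fell with age, among them the ridge ligand gene Fgf8 (by 0.92, limma adjusted p = 0.0205), the feedback inhibitor Spry4 (by 0.68) and the mesenchymal ligand gene Fgf10 (by 0.65), while Fgfr2 rose by 0.54 and Wnt3 by 0.45. In mutants Spry4 fell by 0.56 and Fgfr1 by 0.27, and Fgfr2 rose by 0.35. The list medians between mutants and controls were -0.037 and -0.0067 for Hox genes and -0.028 and 0.021 for FGF and WNT genes, at E11.5 and E12.5.

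Markers of other cell types moved with the groups in part. All 14 surface ectoderm and ridge markers lay above 0 at E11.5 between mutants and controls and 2 of 14 did at E12.5, with sums of 179 to 205 RPKM in E11.5 controls, 188 to 253 in Sox9null, 230.1 to 241 in E12.5 controls and 193 to 228 in Sox9cKO. All 11 erythroid markers lay above 0 at both ages, with sums of 814 to 929.8, 835 to 1462, 621 to 677 and 861 to 1064 in the same order. Of the erythroid genes, only Rhag was called between mutants and controls, higher by 0.77 in Sox9cKO (limma adjusted p = 0.0375). All 10 endothelial markers lay above 0 at both ages. No ectoderm, ridge or endothelial marker was called between mutants and controls at either age. None of these markers was at 0 in any group. The muscle sum was 55.5 to 87.4 in E11.5 controls and 179.8 to 220.4 in E12.5 controls. With age 7 of 9 muscle genes were called higher and 1, the progenitor gene Pax3, lower, in controls and in mutants alike. Of 8 macrophage markers measured, 6 were called higher with age in controls and 5 in mutants. Of 5 nerve and Schwann cell markers, 3 were called higher in each. Among all genes 21.7% were called with age in controls and 19.7% in mutants. The part of these cell types in the levels of the 7 homeobox genes was not tested.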

How the data were processed

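RNA-seq was done on total RNA of mouse limb buds, 13 libraries in 4 groups, matched to the table by its column headings. Per the labels, RNA was taken with the RNeasy Mini Kit. Per the submitters' processing notes, CASAVA 1.8 and mm10 were used. No source used here gives the aligner, counting, strand use or normalization between libraries. Each gene has a normalized RPKM from the authors, who listed 12880 genes with a group mean of at least 3, per the file headers. Their deposited p-value per gene is over the 4 groups, adjusted for the false discovery rate. Library depth is unknown, so no interval of counting error is given.

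Values were taken as log2(RPKM + 1) and fitted with limma 3.58.1 (R 4.3.3), trend and robust, as 4 group means over 13 libraries. Genes with at least 1 RPKM in 3 libraries were kept. All 5 comparisons were two-sided, with Benjamini-Hochberg adjustment over all genes and calls at 0.05. The script was tested on simulated data. Members and lists were chosen with earlier results of these data known. Named genes were the members, Sox9, the 3 non-members of highest r with each member, and from each list up to 3 called genes a direction, or the 2 of highest mean. Irx3, Hoxb3os, Cntf and Irx1 values by library, and Dhrs3 and Ldb1, were given after their values were seen. Coordinates come from GENCODE M21 (GRCm38) and sequences from RefSeq (GRCm38.p6). Alternatives were pseudocounts of 0.1 and 5, filters, scalings, a term for library set or sex, a replicate block and leaving out each library. Replicate numbers did not pair the samples. Of the TALE list, 1 result is not reported here.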

Additional observations from a re-analysis of the deposited data

Results flagged for a closer look

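Lhx9 in the E11.5 Sox9null group had 1 library far from the other 3. Replicate 1 was at 26.8 RPKM, against 30.7, 31.4 and 31.0 in replicates 2 to 4, and the gap to its neighbour was 0.851 of the group's range. This was the 1 such case among the 7 genes in that group, the sole group of 4, and chance marks about 1 in 20 groups. The same library held the highest Meis1 (19.7) and Meis2 (19.4) of the 13.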

How the results depend on the processing

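Across 24 alternative settings, 771 of 819 single-gene values kept their direction and side of the threshold, 31 reversed, 6 lost a call and 11 gained one. Between mutants and controls, and in the difference between ages, 0 of 7 members were called under every alternative run. With the replicate block, 0 of 7 were called in each of these 3 comparisons, and the Meis1 difference was 0.60 at E11.5 and 0.41 at E12.5. Same-numbered libraries had correlations of deviations from -0.43 to 0.64 at E11.5 and -0.12 to 0.17 at E12.5, so the numbers do not pair them. The block could not be fitted to the comparisons of ages. For age in controls, the count of members called was 1, and became 2 with median scaling, with the library set term and with the sex term, and 0 to 2 when 1 library was left out. For age in mutants it was 0, and became 2 with median scaling, 1 with quantile normalization and 0 to 1 when 1 library was left out; the cause was not tested.

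The values that changed sign were uncalled, and the largest reached 0.16 (Meis1 in the difference between ages, -0.19 as reported). Under quantile normalization they were Msx1 0.00072 at E11.5, -0.050 in the difference between ages and 0.035 with age in controls, Lhx2 -0.0020 at E12.5, and Shox2 0.061 with age in mutants. Lhx2 at E12.5 was -0.0095 under median scaling. With the sex term they were Lhx9 -0.0034 at E12.5 and 0.0052 with age in controls, and Meis1 0.0015 in the difference. With the library set term Msx1 was -0.0091 in the difference. Leaving out 1 library gave ranges of -0.084 to 0.24 for Shox2 and -0.051 to 0.022 for Msx1 at E11.5. At E12.5 they were -0.024 to 0.040 for Lhx2, -0.039 to 0.080 for Lhx9 and -0.058 to 0.039 for Msx1. In the difference they were -0.49 to 0.16 for Meis1, -0.60 to 0.023 for Meis2 and -0.037 to 0.060 for Msx1, and with age in controls -0.066 to 0.016 for Lhx9.

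Over the alternatives the count of all genes called ran from 0 to 41 at E11.5 (7 as reported), 9 to 105 at E12.5 (25), 0 to 10 in the difference (4), 1379 to 7132 with age in controls (2794) and 707 to 6675 with age in mutants (2539), highest with the library set term except in the difference. The depth of the libraries is unknown and 3 or 4 embryos a group limit the precision.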
